A study of Mus musculus with 31 samples.

Results

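The 8 arrays of WT littermates of the total line, out of 31 arrays in all, were divided by the signal of acetyl-CoA carboxylase alpha, the enzyme that commits acetyl-CoA to fatty acid synthesis. The sides were chosen by the deposited log2 value of the Acaca probe A_52_P132591 in these same arrays, and a value above 8.4 placed a mouse on the high side. The 3 mice above this threshold were WT replicates 1, 3 and 4, with values of 8.87, 8.999 and 9.46. The 5 arrays below it were WT replicates 2, 5, 6, 7 and 8, with values of 7.47, 7.12, 8.02, 7.95 and 7.86. Replicate 1 at 8.87 was the nearest value inside and replicate 6 at 8.02 the nearest outside. Because measured Acaca signal chose the sides, and because genes of the same arrays move together, every difference between the sides is given as a description without a test. Tests were run only in the 23 mice that the threshold did not divide, or in the knockout comparison, where they stand side by side with the division.

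All animals were male C57BL6/J mice that were fasted for 24 h and then refed for 18 h with food and 20% glucose in the drinking water, and their ages are not given in the sources used here. Besides the 8 arrays of WT littermates of the total line (ChREBPtotal_WT), the liver arrays came from 7 total ChREBP-KO mice (ChREBPtotal_KO). These are null for Mlxipl and so lack both protein isoforms in every tissue. The other line gave 8 ChREBPβ-deficient mice (ChREBPbeta_KO), in which CRISPR/Cas9 removed exon 1b, and 8 of their own WT littermates (ChREBPbeta_WT). The labels give each array its own replicate number, and none of the 31 arrays is labelled KO replicate 3 of the total line. Whole liver RNA was measured, so fewer cells of a type and less RNA per cell cannot be told apart.

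After a carbohydrate meal the liver turns surplus glucose into fat. Glucose carbon leaves the mitochondria as citrate, ATP citrate lyase splits it into acetyl-CoA, acetyl-CoA carboxylase makes malonyl-CoA, fatty acid synthase builds palmitate, and elongases and desaturases lengthen and unsaturate the product. ChREBP, encoded by Mlxipl, is a glucose-responsive transcription factor that binds carbohydrate response elements with its partner Mlx, and SREBP-1c, encoded by Srebf1, is the insulin-responsive factor acting on many of the same genes.

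The oligonucleotide that divided the mice is shown because every other value is read against it. It maps to mm9 chr11:83987047-84008941, within Acaca, and since its 60 bases are spread over 21895 bases of genome it lies in more than 1 exon.
Acaca probe A_52_P132591: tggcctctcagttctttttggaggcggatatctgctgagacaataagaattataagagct

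Start-site windows of 300 bases (RefSeq, GRCm38.p6) are shown for 2 genes that lay higher in the mice above the threshold and are described with their values further on. The first belongs to Pklr, chr3:89136373-89136672 on the plus strand, and its capitals mark a match to the carbohydrate response element, searched as CACGNG and CNCGTG with 5 bases between them, that starts at base 81. The second belongs to Pnpla5, chr15:84123126-84123425 on the minus strand, and its capitals mark the E-box CACGTG at base 114.
Pklr: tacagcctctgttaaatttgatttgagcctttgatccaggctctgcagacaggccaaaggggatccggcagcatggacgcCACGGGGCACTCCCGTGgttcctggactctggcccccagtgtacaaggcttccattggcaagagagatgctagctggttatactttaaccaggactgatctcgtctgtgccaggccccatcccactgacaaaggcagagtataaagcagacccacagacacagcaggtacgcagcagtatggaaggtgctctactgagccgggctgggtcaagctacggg
Pnpla5: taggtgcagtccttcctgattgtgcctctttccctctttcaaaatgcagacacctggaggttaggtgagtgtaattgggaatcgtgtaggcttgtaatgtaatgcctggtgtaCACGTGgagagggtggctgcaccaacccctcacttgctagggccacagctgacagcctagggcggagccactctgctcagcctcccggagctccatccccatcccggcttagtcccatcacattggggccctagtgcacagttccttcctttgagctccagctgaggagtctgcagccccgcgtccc

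Searched on both strands, the carbohydrate response element was present in 15 of 32851 such windows (0.0457%), among them 1 of 20 windows of the listed ChREBP targets (the Pklr window printed above) and 0 of 13 windows of the fatty acid synthesis genes. The other start-site window of Pklr, chr3:89135892-89136191, held 0 matches. The E-box CACGTG, which a carbohydrate response element can contain, was present in 2349 windows (7.15%). It occurred in 4 of the 20 target windows (Arrdc4, Fgf21, Khk and Pnpla5) and in 2 of the 13 fatty acid synthesis windows (Elovl5 and Slc25a1). The sterol response element TCACNCCAC was present in 408 windows (1.24%) and in none of either list. These matches describe letters in a window and say nothing of binding.

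Before the genes, the arrays themselves differed in ways that ran along the threshold. All 3 mice above it were scanned on the first of 2 scan days, whereas below it only WT replicate 2 was scanned on that day and the other 4 arrays on the second. WT replicates 7 and 8 were near identical: the median absolute deviation of their log2 difference was 0.0728 over 10554 probes, against 0.12 for the next closest pair of all arrays and a median of 0.242, and their spread lay below that of replicate spots on a single array. They were averaged and counted as 1 mouse, which leaves 4 on the lower side. Some markers of other tissues were high in arrays below the threshold and in none above it. The adipocyte gene Cfd read 11.03 in replicate 2 and 11.44 in replicate 5 against 4.59 to 5.59 in the other 6 arrays, and Fabp4 read 11.39 and 11.56 against 10.25 to 10.77. Retn, the third of the 6 adipocyte markers to do so, read 7.55 and 8.397 against 5.09 to 5.71, whereas Plin1, Lep and Car3 were not raised in both arrays. The summed level of the 6, which follows the abundant Car3, was 16.27 to 17.06 below the threshold and 16.33 to 16.91 above it, with replicate 2 lowest and replicate 6 highest. The pancreatic elastase gene Cela2a read 13.50, 11.99 and 12.11 in replicates 2, 7 and 8 against 8.99 to 9.99, and 3 more of the 5 pancreas markers (Cela3b, Ctrb1 and Clps) were highest in the same 3 arrays. Replicate 6 was the only array below the threshold with neither the raised adipocyte markers nor the raised pancreas markers. Hepatocyte markers summed to 20.84 to 20.97 in every WT array. Red blood cell markers, whose sum follows the abundant Hba-a1, summed to 17.33 to 17.48 above the threshold and 16.98 to 17.15 below it. The part of scan day and of these other tissues in any difference between the sides was not tested, so values within the first scan day, which set the 3 mice against replicate 2 alone, and values against replicate 6 alone are given beside the leading genes and lists.

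The Acaca probe of the threshold was well above background on all 31 arrays. All spot flags of the authors' filter together were met on 7 of the 8 WT arrays of the total line and 6 of the 7 total ChREBP-KO arrays. In the ChREBPβ line they were met on 6 of 8 WT and 7 of 8 ChREBPβ-deficient arrays. Its deposited value ranged from 7.12 to 9.46 in the WT littermates of the total line, from 6.70 to 8.31 (median 7.36) in the WT littermates of the ChREBPβ line, from 6.48 to 8.22 (median 7.43) in the ChREBPβ-deficient mice and from 5.34 to 6.20 (median 5.67) in total ChREBP-KO mice. No other group reached the threshold of 8.4, and all 7 knockout mice lay below every WT mouse of either line. All 6 Acaca probes of the array were higher in each of the 3 mice than in each of the 5 arrays, with differences of means between 0.75 and 1.48. The brightest of them, used for the gene from here on, averaged 15.19 ± 0.16 (SD, n = 3) above and 14.29 ± 0.27 (SD, n = 4) below the threshold, and 12.66 ± 0.23 (SD, n = 7) in total ChREBP-KO liver.

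**Figure D1:**
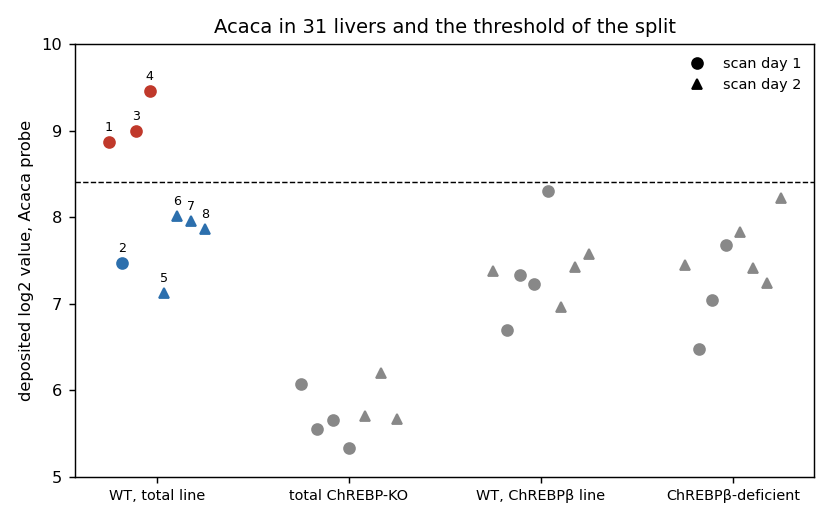
Deposited log2 value of the Acaca probe that divided the mice (vertical axis) in the 4 groups (horizontal axis), one point per array, with numbers giving the WT replicate of the total line, colour its side, symbols the scan day and the dashed line the threshold of 8.4. The 3 mice above the line were all scanned on day 1, and the 7 total ChREBP-KO mice sit between 5.34 and 6.20.

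The gene carrying the knockout was checked first. Mlxipl signal was 13.89 to 14.30 in total ChREBP-KO mice, below the 15.14 to 15.48 of their WT littermates (difference -1.17, SE 0.08, adjusted p = 3.39e-12), and 14.40 to 14.84 in ChREBPβ-deficient mice against 14.88 to 15.33 in theirs. Whether its probe lies in a deleted part was not examined. Among the WT mice of the total line, Mlxipl overlapped between the sides and differed by 0.17.

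Of 23968 genes measured, 1682 were higher in each of the 3 mice than in each mouse below the threshold (7.02%) and 1586 were lower (6.62%). With each array scaled to its 75th percentile in place of quantile normalization, the counts were 2039 higher and 1165 lower, so that 63.6% in place of 51.5% of the genes without overlap were higher. Relative to these shares, genes of fatty acid synthesis were crowded on the higher side and genes of the periportal zone on the lower side. The number of mice limited the precision throughout.

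In fatty acid synthesis, 11 of the 15 listed genes lay wholly higher in the 3 mice above the threshold and 0 lay wholly lower. The list had a median difference of 0.88 against -0.0048 over all genes. Acaca, which set the threshold, is among the 11. The count was 10 to 12 higher in the 9 other settings in which lists were counted, including against replicate 6 alone (12 higher, 1 lower) and within scan day 1 (11 higher, 3 lower). With 1 mouse left below the threshold more genes are without overlap by construction, and in these 2 settings 31.2% and 31.8% of all genes lay higher and 32.8% and 28.6% lower.

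Elovl6, the elongase that turns palmitate into stearate and the widest difference in the pathway, read 15.80, 15.34 and 15.52 in WT replicates 1, 3 and 4. In replicates 2, 5, 6, 7 and 8 it read 13.50, 13.32, 14.18, 14.37 and 14.38. The lowest mouse above the threshold was thus about 1 log2 unit above the highest below it. The means were 15.55 ± 0.23 (SD, n = 3) and 13.85 ± 0.51 (SD, n = 4), a 3.27-fold difference. The difference of 1.71 on the log2 scale was 2.05 within scan day 1 and 1.37 against replicate 6.

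Acly, ATP citrate lyase at the entry of the pathway, read 17.30, 16.80 and 17.15 above the threshold and 15.52, 15.39, 15.84, 16.08 and 16.09 below it. The 2.59-fold difference was carried by every mouse, with the below-side arrays within 0.7 of each other. Me1, the malic enzyme that supplies NADPH, read 16.04, 15.44 and 15.34 above against 13.65, 14.04, 14.65, 15.02 and 14.95 below. Replicates 2 and 5 were the lowest for Me1, and its difference of 1.28 became 0.79 without these 2 arrays, which had high Cfd, Retn and Fabp4. Fasn, fatty acid synthase, had the smallest spread: 18.30, 18.12 and 18.21 above against 17.44, 17.27, 17.64, 17.69 and 17.81 below. Its difference was 0.69, or 1.61-fold, and 0.57 against replicate 6.

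Scd1, the desaturase that makes oleate, read 17.35, 16.99 and 17.29 above the threshold and 16.40, 15.69, 16.09, 16.21 and 16.21 below it, a difference of 1.11 in which no mouse crossed. Thrsp, the lipogenic cofactor Spot 14, read 16.83, 16.84 and 16.97 above and 15.60, 14.86, 16.39, 16.55 and 16.46 below. The sides stayed apart for Thrsp, but its difference of 1.04 was drawn mainly by replicates 2 and 5 and was 0.49 against replicate 6. Acss2, which activates acetate, differed by 1.01, the mitochondrial-surface carboxylase Acacb by 0.88, the elongase Elovl5 by 0.76 and the citrate carrier Slc25a1 by 0.26, all without overlap. The 4 members that overlapped were the desaturases Fads1, Fads2 and Scd2, with differences of -0.19, -0.25 and -0.10, and the carboxylase partner Mid1ip1, with 0.11.

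**Figure D2:**
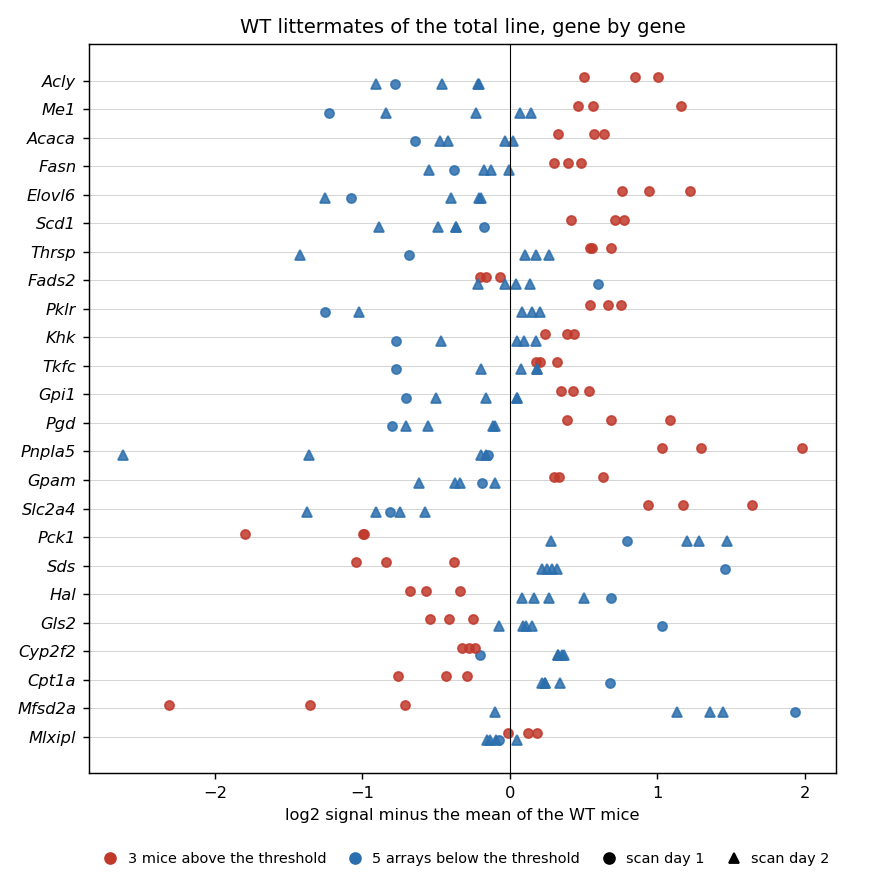
Log2 signal of 24 genes (rows) in the 8 WT arrays of the total line, each minus the gene's mean over the WT mice (horizontal axis), with red for the 3 mice above the Acaca threshold, blue for the 5 arrays below it, circles for scan day 1 and triangles for scan day 2. Red and blue stand apart from Acly to Scd1 on the high side and for Pck1, Sds and Hal on the low side, and mix for Fads2 and Mlxipl.

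Among 19 glucose-responsive ChREBP targets, 6 lay wholly higher (Pnpla5, Rgs16, Pklr, Khk, Arrdc4 and Hbp1) and 0 wholly lower, with a median difference of 0.51. Without replicates 2 and 5, 10 lay higher and 4 lower. The counts were 12 and 3 within scan day 1 and 13 and 5 against replicate 6 alone. In these settings 16.3%, 31.8% and 31.2% of all genes lay higher and 16.1%, 28.6% and 32.8% lower. Pklr, liver pyruvate kinase and the gene with 1 start window that holds the carbohydrate response element printed above, read 11.14, 11.02 and 11.23 above the threshold. Below it Pklr read 9.22, 9.45, 10.68, 10.56 and 10.63. Replicates 2 and 5 were far below the rest for Pklr, and the difference of 1.14 was 0.49 without them and 0.45 against replicate 6.

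Khk, the ketohexokinase that phosphorylates fructose, read 17.45, 17.25 and 17.40 above the threshold and 16.24, 16.55, 17.06, 17.19 and 17.11 below it. The sides were separated by less than 0.1 at their nearest arrays, and the difference was 0.62. Tkfc, the triokinase of the next steps of fructose use, overlapped, with a difference of 0.41. Pnpla5, a patatin-like lipase of lipid droplets, had the widest range of these targets: 11.73, 11.47 and 12.42 above against 10.29, 7.81, 9.07, 10.27 and 10.24 below. Its means of 11.87 ± 0.49 (SD, n = 3) and 9.36 ± 1.18 (SD, n = 4) differed 5.71-fold. Replicate 5, at 7.81, was the lowest for Pnpla5, while replicate 2, scanned with the 3 high mice, read 10.29. Rgs16, a regulator of G protein signalling, differed by 1.35. The lipase Pnpla3 (1.94), Txnip (0.74), the glucose transporter Slc2a2 (0.36) and the phosphatase G6pc (0.68) were higher on average above the threshold but overlapped.

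In the pentose phosphate pathway, a source of NADPH, 3 of 8 genes lay wholly higher and 1 wholly lower. Pgd, phosphogluconate dehydrogenase, read 13.42, 12.72 and 13.02 above the threshold against 11.53, 11.63, 11.78, 12.23 and 12.22 below, a 2.40-fold difference. Rpia and Tkt, of the non-oxidative branch, differed by 0.78 and 0.45. Pgls was lower by 0.13, a sign that turned to 0.06 with 75th-percentile scaling.

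Glycolysis did not move as a block: 2 of 14 genes lay wholly higher and 4 wholly lower. The higher genes were Pklr and Gpi1, which interconverts glucose and fructose phosphates, and Gpi1 read 16.75, 16.56 and 16.64 above against 15.51, 15.71, 16.05, 16.26 and 16.26 below. Ldha (-0.39), Pfkfb2 (-0.50), Pgam1 (-0.23) and Tpi1 (-0.21) lay lower. In triglyceride synthesis and lipid droplets, 1 of 19 genes lay higher and 4 lower. Gpam, the acyltransferase that starts glycerolipid synthesis, differed by 0.74, while the droplet coats Plin2 (-0.52) and Plin4 (-0.63), Agpat3 (-0.31) and Apob (-0.36) were lower. Of 21 cholesterol synthesis and uptake genes 0 lay higher and 1 lower. That count turned over with the mouse set against, from 1 higher and 13 lower within scan day 1 to 12 higher and 1 lower against replicate 6. Of all genes 31.8% lay higher and 28.6% lower in the first of these settings and 31.2% and 32.8% in the second.

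The regulators of lipogenesis largely overlapped. Among 16 of them Klf10, a glucose-inducible repressor, differed by 1.16 and Usf2 by 0.19 on the higher side, and the nuclear receptors Nr1h3 (-0.25) and Rxra (-0.46) lay lower. Srebf1 differed by 0.10 with overlap, against 0.69 and 1.11 for Fasn and Scd1, both known targets of SREBP-1c.

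The 10 widest higher differences among genes measured on every WT array were those of Pnpla5, Cyp26b1, Slc2a4, Gm35986, Eva1c, Sorcs2, Gm35219, Elovl6, Plch2 and Plcxd1. Slc2a4, the insulin-sensitive glucose transporter GLUT4, is best known from muscle and fat. It read 10.41, 10.17 and 10.88 above the threshold against 8.42, 7.86, 8.33, 8.66 and 8.49 below, a 4.56-fold difference. The sides did not overlap for Slc2a4, and the difference was 2.16 against replicate 6. Cyp26b1, which degrades retinoic acid, read 11.20, 11.26 and 10.25 above against 8.68, 6.96, 9.28, 9.43 and 9.52 below.

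On the lower side the periportal zone stood out, in which hepatocytes around the portal vein carry out gluconeogenesis and amino acid breakdown. Of 8 periportal genes, 6 lay wholly lower and 0 wholly higher, with a median difference of -0.81. In those 9 settings 5 to 8 lay lower and 0 higher, where 4.86% to 32.8% of all genes lay lower. Of 8 pericentral genes, only the Wnt target Axin2 was without overlap, higher by 0.48.

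Pck1, the rate-limiting enzyme of gluconeogenesis, read 13.55, 13.56 and 12.75 above the threshold. Below it Pck1 read 15.34, 16.02, 14.83, 15.75 and 15.83. The nearest mice of the sides were more than 1 log2 unit apart. The means of 13.29 ± 0.47 (SD, n = 3) and 15.50 ± 0.53 (SD, n = 4) differed by -2.21, by -2.05 within scan day 1 and by -1.54 against replicate 6. Sds, serine dehydratase, read 10.65, 10.45 and 11.11 above and 12.95, 11.71, 11.81, 11.74 and 11.78 below, so that replicate 2 was highest. The histidine-degrading Hal (-0.92), the glutaminase Gls2 (-0.70), Hsd17b6 (-1.27) and Cyp2f2 (-0.49) made up the 6. Cyp2f2 followed scan day as much as side, since replicate 2, scanned with the 3 high mice, read 16.59 beside their 16.47, 16.56 and 16.52, and the 4 arrays of the second day read 17.12 to 17.16.

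Of 11 genes of gluconeogenesis and the fasting response, 3 lay lower (Pck1 and Sds, which are also periportal, and the tyrosine aminotransferase Tat at -1.14) and 0 higher. In fatty acid oxidation, 5 of 20 genes lay lower and 1 higher. Cpt1a, the carnitine acyltransferase that malonyl-CoA inhibits, read 12.37, 12.23 and 11.90 above the threshold and 13.34, 12.90, 13.00, 12.90 and 12.88 below, a difference of -0.86. Cpt2 (-0.43), Cyp4a10 (-0.49) and the regulator Ppara (-0.42) also lay lower, and the pyruvate dehydrogenase kinase Pdk4 lay higher by 0.77. The lower count of this list depended on the arrays below the threshold: it was 12 without replicate 2, 15 without replicates 2 and 5, and 17 against replicate 6 alone. The share of all genes that lay lower was 11.9%, 16.1% and 32.8% in these settings. Within scan day 1, 4 genes of the list lay higher and 7 lower, where 31.8% of all genes lay higher and 28.6% lower. With 75th-percentile scaling 3 lay lower, where 4.86% of all genes did.

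The 10 widest lower differences included those of Mfsd2a, Derl3, Ccl21a, Pck1, Mgp, Ptgds, Sds, Sprr1a and Hist2h3c2. Mfsd2a, a transporter of lysophospholipids that rises in liver on fasting, read 9.20, 8.55 and 7.60 above the threshold against 11.84, 11.04, 9.81, 11.26 and 11.35 below. Replicate 6 lay nearest to the high side for Mfsd2a, and the difference of -2.55 was -1.36 against it. Derl3, of endoplasmic-reticulum protein degradation, differed by -2.37, and replicates 2, 5 and 6 read 11.43, 11.19 and 11.53 while replicates 7 and 8 read 9.71. For Ccl21a and Mgp, genes of lymphatic vessels and of matrix, replicate 2 was far highest, at 9.97 and 10.68.

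Of the remaining lists, 4 of 17 circadian clock genes lay higher (among them Arntl, Npas2 and Bhlhe40, by 0.38 to 0.51) and 1 lower, Clock at -0.21. Of 12 genes of the unfolded protein response, 2 lay lower (Herpud1 at -0.79 and Dnajb9 at -0.56) and 0 higher. Here too the count changed with the mouse set against, from 0 higher and 11 lower within scan day 1 to 8 higher and 4 lower against replicate 6. Of all genes 31.8% lay higher and 28.6% lower in the first setting and 31.2% and 32.8% in the second. The 4 lower of 12 were thus near the share of all genes. Of 5 red blood cell markers 3 lay higher, the globins Hba-a1, Hbb-b1 and Hbb-bt by 0.31 to 0.39. Slc4a1 and Alas2 overlapped, and Alas2 read 11.87 to 12.12 above the threshold against 11.81 in replicate 2 and 12.26 to 12.50 in the other arrays below. One marker each, of 6 or 7 measured, lay lower for adipocytes (Fabp4, -0.71), stellate cells and fibroblasts (Col1a2, -0.96), macrophages (Lyz2, -0.59) and lymphocytes (Cd3d, -0.16). The median difference of the stellate and fibroblast list was -0.080 and that of the 7 macrophage markers -0.33. The macrophage count changed with the mouse set against: 5 lay lower without replicate 2, where 11.9% of all genes did, and 7 against replicate 6 alone. Within scan day 1, 4 of them lay higher and 2 lower. None of the acute phase, hepatocyte, endothelial, exocrine pancreas or bile duct genes was without overlap.

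**Figure D3:**
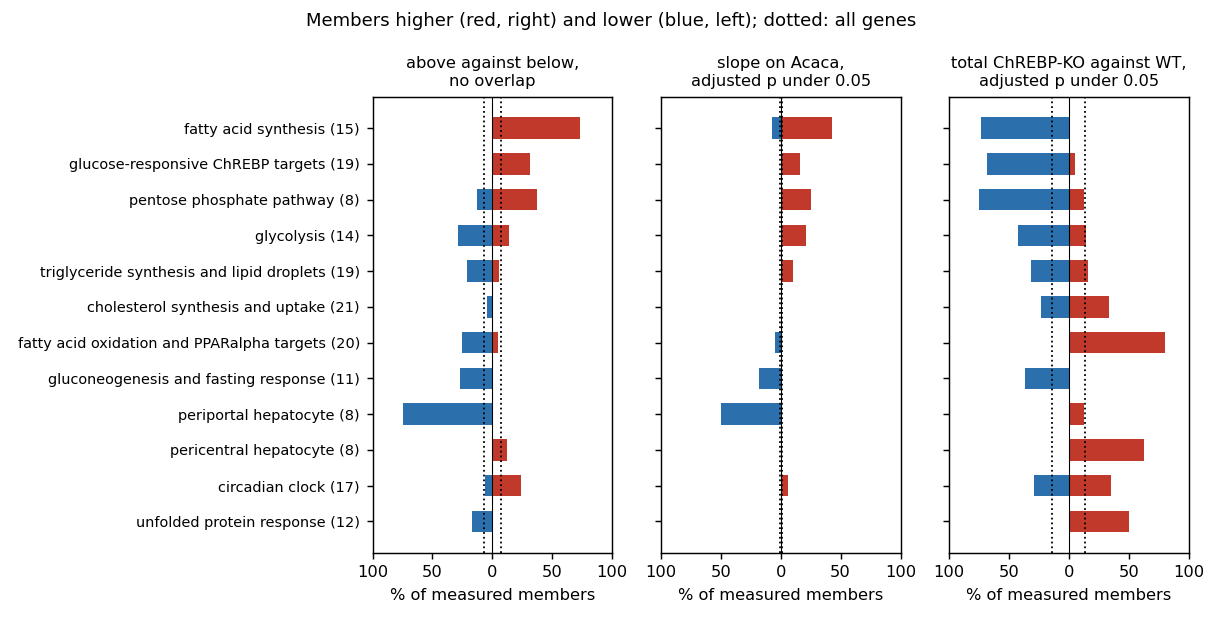
Share of each list's measured members (horizontal axis, %, number measured in parentheses) that were higher (red, to the right) or lower (blue, to the left) between the WT mice above and below the threshold, with Acaca in the ChREBPβ line, and in total ChREBP-KO liver against WT littermates. Dotted lines give the share over all genes, for the division 7.02% higher and 6.62% lower.

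The 16 mice of the ChREBPβ line, which the threshold did not divide, were used to ask which genes vary with Acaca. For each gene limma gave a slope, the change in log2 signal per log2 unit of the Acaca probe, with genotype as a covariate. After Benjamini-Hochberg adjustment over all probes at 0.05, 179 of 23967 genes had a positive slope (0.747%) and 150 a negative slope (0.626%). With the replicate number as a block 0 genes were called in either direction, against 2143 genes at an unadjusted p under 0.05 (3811 without the block), and the slopes given from here on are without the block. Of the 8 same-numbered pairs of WT and ChREBPβ-deficient mice 6 deviated together with r over 0.1 and 2 did not, and no label says what a number marks. The slope p-values without the block treat the 16 mice as independent, which is not known. With scan day as a further term 105 genes were positive and 77 negative. A difference of slope between the 2 genotypes was called for 0 of 36053 probes by limma, with 1592 at an unadjusted p under 0.05.

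Genes that lay wholly higher in the 3 WT mice had a positive slope in 96 of 1681 cases (5.71%, against 0.747% of all genes) and a negative slope in 0. Genes that lay wholly lower had a negative slope in 46 of 1586 cases (2.90%, against 0.626%) and a positive slope in 0. These 2 comparisons share no array. Read the other way, 96 of the 179 genes with a positive slope (53.6%) lay wholly higher in the division and 46 of the 150 with a negative slope (30.7%) wholly lower, with median differences of 0.49 and -0.29. Of the 53 genes that lay higher by at least 1 log2 unit, 25 (47.2%) had a positive slope, and of the 30 lower by as much, 4 (13.3%) had a negative one.

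Among the 14 fatty acid synthesis genes other than Acaca, 6 had a positive slope and 1 a negative one. Elovl6 had the steepest slope of them, 1.17 (95% CI 0.99 to 1.35, adjusted p = 7.06e-06, limma, 16 mice), followed by Thrsp at 0.91 (adjusted p = 0.000594), Me1 at 0.81 (0.0202), Fasn at 0.74 (0.000137), Acly at 0.72 (0.0349) and Mid1ip1 at 0.31 (0.035). Fads2, which overlapped in the division with a difference of -0.25, had a slope of -0.48 (adjusted p = 0.038). No member had a called negative slope with scan day as a term, with 75th-percentile scaling or with Elovl6 in place of Acaca. Nor had any when WT replicate 2 or 5 or ChREBPβ-deficient replicate 2, 5, 6 or 8 was left out, each in turn. Scd1, so clearly apart among the WT mice of the total line, had a slope of 0.20 (95% CI -0.24 to 0.65, adjusted p = 0.708), and Elovl5 of -0.03 and Acss2 of 0.21 did not pass either. Without WT replicate 5 of the ChREBPβ line, the mouse with its highest Acaca signal, or without ChREBPβ-deficient replicate 8, 3 members were called positive.

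Of the ChREBP targets, 3 of 19 had a positive slope: Pklr at 0.99 (adjusted p = 0.00103), Tkfc at 0.90 (5.69e-05) and Khk at 0.70 (0.000251). Pnpla5 (0.80, adjusted p = 0.313) and Rgs16 (1.26, adjusted p = 0.266) did not pass. In the pentose phosphate pathway Rpia (0.77) and Tkt (0.45) passed, in glycolysis Pklr, Gpi1 (0.67) and Eno1 (0.24), and in triglyceride synthesis Gpam (0.61) and Dgat2 (0.41). The 10 genes with the smallest p also held Ank, 2310022B05Rik, Cabp2, Plcxd1 and Rcbtb2, of which Cabp2 had a slope of 1.29 (adjusted p = 0.000123) and Plcxd1 of 1.22 (adjusted p = 0.00013). Slc2a4 had a slope of 0.97 (adjusted p = 0.0179), whereas Cyp26b1 ranged from 7.31 to 11.84 in the WT mice of this line with a slope of 0.35 (adjusted p = 0.893).

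The periportal list had negative slopes in 4 of 8 members and positive ones in 0. Sds had the steepest, -1.48 (95% CI -1.94 to -1.02, adjusted p = 0.0026), then Pck1 at -1.19 (0.00969), Gls2 at -0.79 (0.0153) and Hal at -0.61 (0.00481). Hsd17b6 at -0.92 (adjusted p = 0.0577) missed the threshold. Outside this list Cpt1a was the only fatty acid oxidation gene called, at -0.68 (adjusted p = 0.0199). No gene of the cholesterol, regulator, unfolded protein response or pericentral lists was called, and Per2 at 0.57 was the only clock gene. Srebf1 had a slope of 0.06 (adjusted p = 0.86) and Mlxipl of 0.03 (95% CI -0.14 to 0.21, adjusted p = 0.891).

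Group by group, 6 genes were correlated with the Acaca probe by exact two-sided permutation, with Benjamini-Hochberg adjustment over the 18 relations, and Pearson's r passed in 7 of them and Spearman's rho in 6. In the 8 WT mice of the ChREBPβ line, Elovl6 had r = 0.98 (adjusted p = 0.00551, exact permutation) and rho = 0.952, and r = 0.932 without the 2 mice farthest from the median of Acaca. Fasn had r = 0.934 (adjusted p = 0.00616, exact permutation) and rho = 0.905, but r = 0.579 without those 2 mice, so the relation rested partly on them. Pklr had r = 0.86 (adjusted p = 0.0171, exact permutation), 0.643 without the 2 mice, and its rho of 0.595 did not pass. In the 8 ChREBPβ-deficient mice, Elovl6 (r = 0.953, rho = 0.929), Fasn (0.924, 0.881), Pklr (0.913, 0.905) and Acly (0.844, 0.958) passed, with r of 0.812, 0.734, 0.914 and 0.968 without the 2 farthest mice.

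In the 7 total ChREBP-KO mice none of the 6 genes passed with this probe, the nearest being Fasn with r = 0.793 (adjusted p = 0.0591, exact permutation) and rho = 0.643. With the mean of all Acaca probes in its place, 3 passed there by r and none by rho: Fasn (r = 0.965, adjusted p = 0.00476, exact permutation), Acly (0.885, 0.0286) and Scd1 (0.88, 0.0382). Without the 2 farthest mice these r were 0.743, 0.624 and 0.317. Srebf1 passed in no group with either measure, and Scd1 in neither group of the ChREBPβ line. Each scan day held fewer than 6 mice of a group, so no correlation was computed within a day. For comparison, and without a test, r across the 7 WT mice of the total line was 0.952 for Elovl6, 0.957 for Fasn, 0.911 for Scd1, 0.949 for Acly, 0.896 for Pklr and 0.463 for Srebf1.

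**Figure D4:**
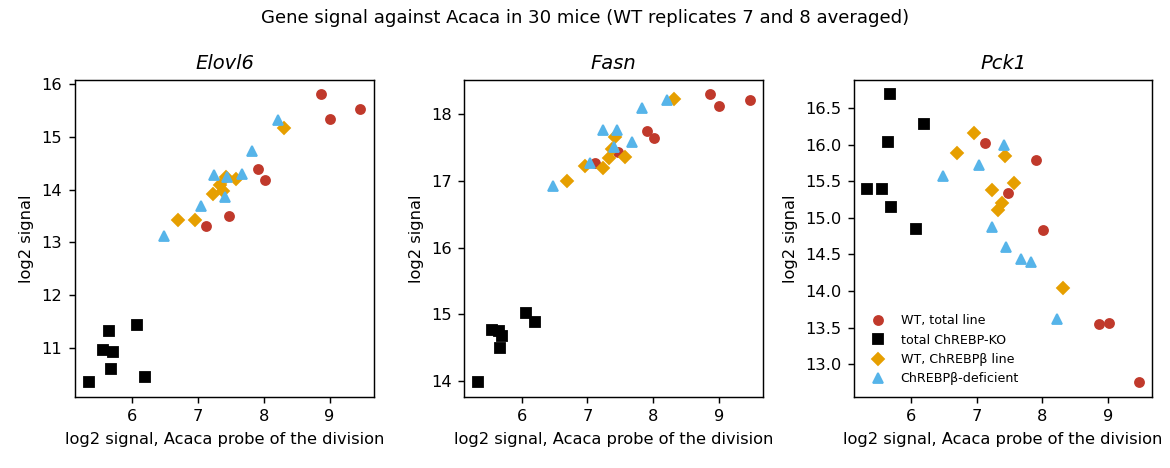
Log2 signal of a gene in each panel (vertical axis) against log2 signal of the Acaca probe (horizontal axis) in 30 mice, with colour and symbol for the group and WT replicates 7 and 8 of the total line averaged. The total ChREBP-KO mice sit at the lowest Acaca values, and Elovl6 follows Acaca within both groups of the ChREBPβ line (r of 0.98 and 0.953).

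Total ChREBP-KO liver was compared with both sets of WT mice in a limma fit of the 4 groups, which share the estimate of the spread. Calls in either comparison therefore draw on all groups, the divided mice included. Against the WT littermates, which are the mice divided above, 3241 genes were higher (13.5%) and 3381 lower (14.1%). This comparison shares the WT arrays with the division, so the values of both stand side by side only. Against the WT mice of the ChREBPβ line, which share no array with the division, 3323 genes were higher (13.9%) and 3787 lower (15.8%), with line and genotype inseparable.

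Of the 1682 genes that lay wholly higher in the 3 WT mice, 586 (34.8%, against 15.8% of all genes) were lower in total ChREBP-KO liver than in the WT mice of the ChREBPβ line and 129 (7.67%, against 13.9%) higher. Of the 1586 that lay wholly lower, 337 (21.2%) were higher and 124 (7.82%) lower. Among the 53 genes higher by at least 1 log2 unit, 41 (77.4%) were lower in the knockout and 0 higher. Among the 30 genes lower by as much, 7 (23.3%) were higher and 4 (13.3%) lower. The slopes and the difference from the WT littermates come from different mice, but the knockout calls take their spread from all 4 groups. Of the 179 genes with a positive slope 124 (69.3%) were lower in the knockout than in littermates and 6 (3.35%) higher. Of the 150 with a negative slope 51 (34.0%) were higher and 4 (2.67%) lower.

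In fatty acid synthesis 11 of 15 genes were lower in total ChREBP-KO liver than in WT littermates and 0 higher, where 14.1% of all genes were lower. Against the WT mice of the ChREBPβ line 12 were lower, where 15.8% of all genes were. Elovl6 ranged from 10.36 to 11.44 in the 7 knockout mice, below every WT mouse, and fell by 3.71 (SE 0.34, adjusted p = 2.49e-09) against littermates. Fasn ranged from 13.98 to 15.02 and fell by 3.17 (SE 0.20, adjusted p = 1.53e-12). Scd1 fell by 3.28 (adjusted p = 1.08e-07), and the differences were -3.16 for Me1, -2.75 for Acly, -4.61 for Thrsp and -3.84 for Acacb. The distance from knockout to WT was therefore several times the distance between the WT sides for Fasn (-3.17 against 0.69) and about 2 times for Elovl6 and Acly. Slc25a1, without overlap in the division, had a knockout difference of -0.16 that did not pass.

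The targets and sugar-entry genes moved the same way as the lipogenic enzymes. In the knockout 13 of 19 ChREBP targets were lower and 1 higher, Gcdh. Pnpla5 fell by 5.77 to 4.49 to 4.88, where it was well above background on only 3 of 7 knockout arrays, and Rgs16 fell by 6.34 on the log2 scale. Pklr fell by 3.98 (SE 0.29, adjusted p = 3.24e-11), and the differences were -1.94 for Khk, -2.87 for Tkfc, -1.75 for Gpi1, -1.81 for Pgd, -1.59 for Gpam and -3.28 for Slc2a4 (adjusted p = 1.11e-06). In the pentose phosphate list 6 of 8 genes were lower and 1 higher, in glycolysis 6 of 14 were lower and 2 higher, and in triglyceride synthesis 6 of 19 were lower and 3 higher. Cholesterol synthesis genes, nearly all overlapping in the division, were 7 higher and 5 lower of 21 against littermates. Against the WT mice of the ChREBPβ line 1 was higher and 9 lower. The shares over all genes were 13.5% higher and 14.1% lower against littermates, and 13.9% and 15.8% against those other WT mice. The higher counts of the pentose phosphate, glycolysis and triglyceride lists were thus near the share of all genes.

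Among genes lower in the 3 WT mice, the knockout did not show 1 common direction. Cpt1a was higher by 1.02 (SE 0.21, adjusted p = 0.000396) against littermates, where 16 of 20 fatty acid oxidation genes were higher and 0 lower. Against the WT mice of the ChREBPβ line its difference was 0.10 (adjusted p = 0.759), and 6 genes of the list were higher and 2 lower. The shares over all genes were 13.5% higher and 14.1% lower against littermates, and 13.9% and 15.8% against those other WT mice. Pck1 had a difference of 1.14 (95% CI 0.24 to 2.03, adjusted p = 0.053) from littermates, and the 7 knockout mice at 14.85 to 16.69 lay within or above the range of the WT mice below the threshold and above all 3 mice beyond it. Sds differed by -0.05 (adjusted p = 0.944), Hal by 0.15 (0.652) and Gls2 by -0.12 (0.766). Hsd17b6, higher by 1.38 (adjusted p = 0.00189), was the only periportal gene called, whereas 5 of 8 pericentral genes were higher in the knockout.

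Mfsd2a went the same way in both: the difference was -2.55 for the lipogenic-high WT mice and -3.36 (SE 0.59, adjusted p = 7.13e-05) for the knockout, where 6 of 7 mice read 5.22 to 6.54 and replicate 7 read 10.05. Ptgds likewise differed by -1.37 in the 3 mice and by -2.19 in the knockout (adjusted p = 7.24e-07). Derl3 (-2.37) and Hist2h3c2 (-1.17) had the opposite sign in the knockout, 1.73 (adjusted p = 0.00196) and 1.39 (adjusted p = 0.000878). Cyp26b1, 2.30 higher in the 3 mice, ranged from 7.70 to 12.26 in knockout mice and differed by 0.03 (adjusted p = 0.985). Eva1c, 1.93 higher, differed by -2.03 from littermates but differed by -0.14 (adjusted p = 0.802) from the WT mice of the ChREBPβ line. Fads2, with -0.25 in the division, differed by -0.02 (adjusted p = 0.956).

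The remaining lists in the knockout, against littermates, gave 2 higher and 5 lower of 16 regulators, with Srebf1 at -0.93 and Klf10 at -3.89. Of the gluconeogenesis list 0 were higher and 4 lower, among them G6pc (-4.73) and Fbp1 (-1.40). The clock list had 6 higher and 5 lower of 17, and the unfolded protein response 6 higher and 0 lower of 12. Over all genes 13.5% were higher and 14.1% lower, so the 2 higher of 16 regulators were near that share. Arntl, Npas2 and Bhlhe40, which lay higher in the 3 WT mice, were lower in the knockout than in littermates, with differences from -2.07 to -0.87. Against the WT mice of the ChREBPβ line, which share no array with the division, Bhlhe40 differed by -1.37 (adjusted p = 3.2e-05), while Arntl at -0.29 (0.695) and Npas2 at -0.38 (0.187) were not called.

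**Figure D5:**
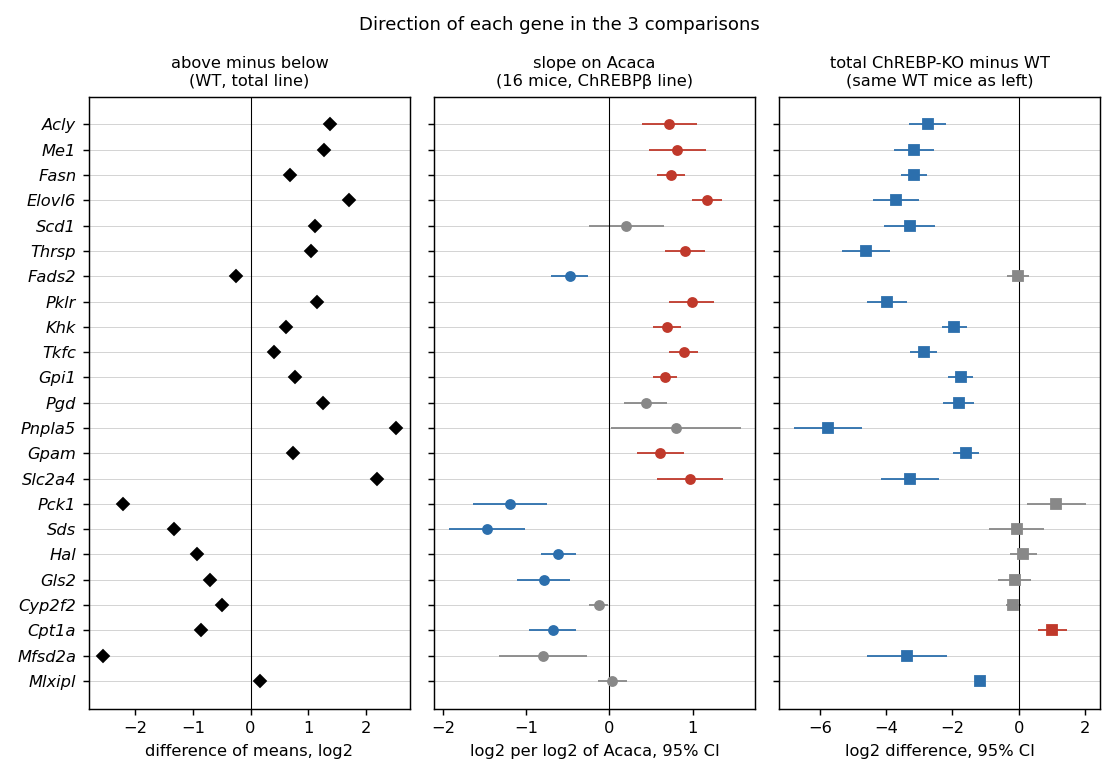
For each gene (rows), the log2 difference between WT mice above and below the Acaca threshold (left, no test), the slope on Acaca in 16 mice of the ChREBPβ line with its 95% confidence interval (middle), and the log2 difference of total ChREBP-KO from WT littermates with its 95% confidence interval (right), coloured red or blue where called higher or lower and grey where not called. Elovl6 is at 1.71, 1.17 and -3.71, Pck1 at -2.21, -1.19 and 1.14, and Mfsd2a at -2.55, -0.80 and -3.36.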

How the data were processed

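The authors hybridised Cy3-labelled RNA of each sample to Agilent one-colour arrays. They deposited scanner files (Feature Extraction 10.10.1.1) of spot intensity with quality flags, and a table of log2 values after their filter and quantile normalization. Here the filter of their methods was rebuilt (a spot had to be found, positive, significant and bright against background in 26 or more arrays, or in 6 or more of a group), the median intensity was put on the log2 scale, quantile normalized with limma 3.58.1 in R 4.3.3, and taken as the median per probe name. This kept 36059 probes, against 36057 in the deposited log2 table, with r = 0.999995. A gene has the value of its brightest probe. Tests were limma fits (lmFit, eBayes) with Benjamini-Hochberg adjustment over all probes at 0.05, checked on simulated data. In that check the deviations of each probe from its group means were shuffled over arrays. It therefore cannot cover relations between genes or between same-numbered mice. The design had counted every WT array, but replicates 7 and 8 were averaged. The study used several litters per experiment, but no label ties a mouse to a litter, so p-values measure the spread between these samples. Genes were named as members of 23 lists, the fatty acid synthesis list in full and otherwise those without overlap or called, as the 10 widest differences in each direction, and as the 10 smallest slope p, and a few genes that this rule names are not reported here. The members and lists were chosen with earlier results of these data known. The number of arrays limits the precision.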

Additional observations from a re-analysis of the deposited data

Results flagged for a closer look

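Of 116 gene and group combinations examined, 13 (11.2%) held a mouse far from the others by Dixon's criterion. Chance gives about 1 in 20 for a single combination. The combinations are not independent, because they share mice and many of the genes vary together, so the share cannot show an excess over chance. In the WT mice of the ChREBPβ line, replicate 5, which has the highest Acaca signal of that line, read 17.00 for Acly (nearest mouse 16.11), 7.78 for Cabp2 (6.38), 15.17 for Elovl6 (14.24), 16.17 for Gpam (15.48) and 12.72 for Pgd (12.05). Replicate 2 of the same group read 14.75 for Hal (13.97). Among ChREBPβ-deficient mice, replicate 2 read 7.68 for Ccl21a (6.70) and 13.04 for Fads2 (12.50). Among WT littermates of the total line, replicate 2 read 12.63 for Fads2 (12.13). Among total ChREBP-KO mice, replicate 7 read 12.76 for Fads2 (12.01) and 10.05 for Mfsd2a (6.54), replicate 5 read 10.75 for Scd1 (13.01), and replicate 6 read 12.94 for the adipocyte gene Cfd (6.01).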

How the results depend on the processing

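The division of the WT mice gave 1633 to 3010 genes higher and 1542 to 2860 lower when each replicate was left out, the count moving by over 1.5 times without replicate 1 (2462 lower), 2 (2860 lower) or 4 (3010 higher, 2827 lower). Alternatives chosen after seeing the data gave 3906 higher and 3869 lower without replicates 2 and 5, 7468 and 7858 against replicate 6 alone, and 7619 and 6855 within scan day 1. Fewer mice leave more genes without overlap by construction. The slope on Acaca gave 74 to 218 genes positive and 28 to 219 negative with each mouse left out. It moved by over 1.5 times without WT replicates 2 (93 and 39) or 5 (74 and 28) and ChREBPβ-deficient replicates 2 (85 and 39), 5 (98 negative), 6 (99 negative) or 8 (88 and 62). It was 105 and 77 with scan day, 2 and 0 in the WT mice alone, 19 and 1 in the ChREBPβ-deficient mice alone, and 0 and 0 with the replicate block. The cause was not tested. Whether the numbers pair the mice is not known, and the fits without the block treat the mice as independent. Correlations of deviations between same-numbered mice ran from -0.192 to 0.64 in the ChREBPβ line (6 of 8 over 0.1, 4 of 8 best with their own number). In the total line they ran from -0.271 to 0.197 (1 of 6 over 0.1). With the block, 2241 genes were higher and 2545 lower in the knockout against littermates, and 2355 and 3024 against the WT mice of the ChREBPβ line. Leaving out single replicates gave 2732 to 3241 higher and 3007 to 3440 lower, and 2995 to 3305 and 3434 to 3733. Of the named genes, 1 of 1405 values of the division turned sign, Pgls at 0.0578 with 75th-percentile scaling, and 61 moved by over 1 SD. Of the calls, 157 of 771 slope values, 7 of 1256 knockout values against littermates and 10 of 1210 against the other WT mice lost the threshold and none turned. With the mean of all Acaca probes, 10 of the 18 correlations passed in place of 7, the 3 added ones being Fasn, Acly and Scd1 in total ChREBP-KO mice. A probe near background has little signal to move, which bounds the knockout values of Pnpla5.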
